A study of Bombyx mori with 2 samples.

Results

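The regions described here are 80 exon-rich loci of the silkworm *Bombyx mori* in which transcripts of at least 20 exons were assembled from the fore- and hindwing buds alike. Each wing bud was represented by 1 library, made from the total RNA of 80 pooled buds of IV instar larvae of the Daizo strain, fed on mulberry leaves, with no treatment that set the groups apart. Forewing buds came from the second and hindwing buds from the third thoracic segment, and the study asked which genes differ between them. The paper found the Hox protein Ubx in the hindwing proper, and in forewing buds in the peripodial membrane alone. Transcripts were assembled in each library alone and were joined here into loci where their exons on a strand had 1 base or more in common. This gave 25992 loci, of which 10423 had a spliced transcript in both libraries. A locus was a member when each library had a transcript of 20 or more exons there and no transcript of it spanned 50000 bases or more. No expression value entered the choice of members, but each library had to cover 20 or more exons in 1 transcript. Loci at a very low level in either wing bud could thus not enter. With 1 library per wing bud no difference between the wings could be tested. The intervals of the level of a single locus cover only the error of counting fragments and assigning them to transcripts in that library. Those of medians and shares are taken over exons, introns or loci. No interval covers the spread between libraries of the same wing bud.

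In a split gene the exons are joined into a mature RNA and the introns between them are removed, and different choices of splice sites and exons give the forms of a gene. Each intron is removed at a 5′ splice site, where the exon before it ends, and a 3′ splice site, where the next exon begins. An internal exon whose length is a multiple of 3 can be left out of a coding sequence without a shift of the reading frame. In insects, genes with very many exons often code for large proteins such as those of the cytoskeleton, the extracellular matrix, molecular motors and cell adhesion. The deposited transcripts carry no gene names, so the loci are named by scaffold, start, end and strand as deposited, on a genome build that the sources used here do not name, and no gene or role was assigned to any of them. For the same reason the labelled tissue could not be checked against its marker genes. Strand was read by the assembler from the splice sites, because the kit did not mark it.

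The 80 loci lay on 48 scaffolds. Introns were on the plus strand in 34 loci, on the minus strand in 44 and on both strands in 2. The fullest form, the transcript with the most exons, had a median of 23.5 exons in the hindwing and 24 in the forewing library, and at most 49 and 51. It had 30 or more exons in 15 loci in the hindwing and 16 in the forewing. Many loci lay close to the limit of the rule. By the smaller of its 2 fullest forms, 12 loci had exactly 20 exons and 10 had 21, while 14 loci with 19 exons and 27 with 18 fell just outside. A further 6 loci reached 20 exons in the hindwing library alone and 38 in the forewing library alone, although they were spliced in both. The longest transcript of a member spanned 14361 to 49495 bases with a median of 28445.5 (95% interval of the median 26000 to 31444), and the longest spliced length per locus had a median of 5670.5 bases.

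The 24-exon locus nscaf2855:2339178-2369179 on the plus strand shows the plainest build of such a gene. Both libraries gave 1 form of 24 exons there, with the same 23 introns. Its internal exons ran from 41 to 324 bases with a median of 157.5, its introns had a median of 1064 bases and the longest, the first, had 2608. The locus nscaf2859:1361585-1392637 on the plus strand had the most exons. The forewing library held it as 1 transcript of 51 exons and 9413 bases. The hindwing library gave the same stretch in separate pieces, 2 forms of 21 exons that ended at base 1375606 and 1 of 31 exons that began at base 1375676, both within what the forewing library gave as 1 exon. Of 51 introns there, 50 were found in both libraries. Its introns were short, with a median of 215 bases, the lowest of all 80 loci. The plot of assembled transcripts draws these loci beside 2 others.

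**Figure D1:**
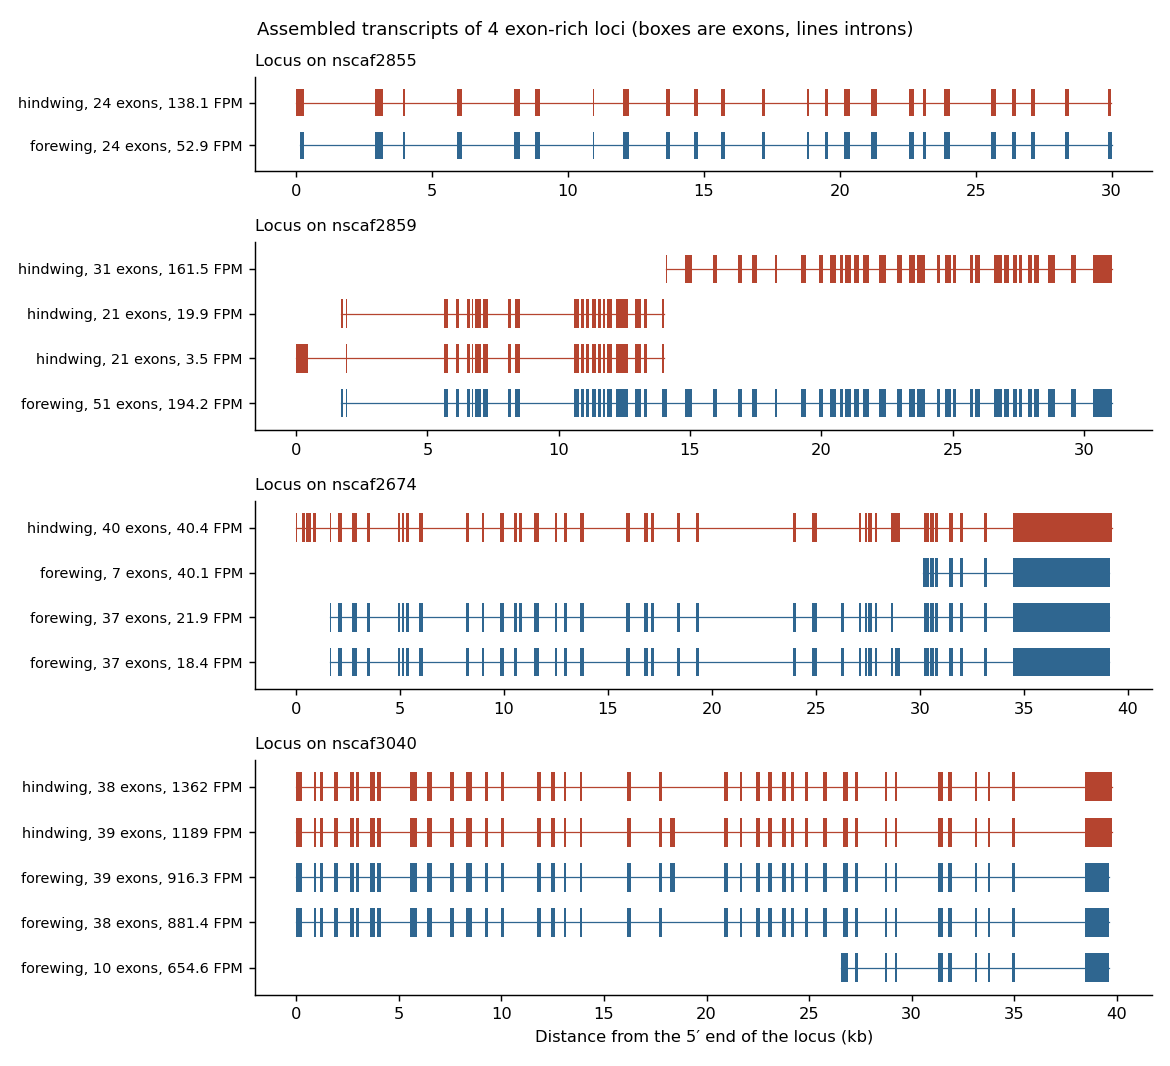
Assembled transcripts of 4 exon-rich loci in the hindwing (red) and forewing (blue) bud libraries, with boxes for exons, lines for introns, distance from the 5′ end of the locus in kb on the x axis and the level of each transcript in FPM (fragments per 1000000 in the library) at its left. The nscaf2855 locus has the same 24 exons in both libraries, the nscaf2859 locus is 1 transcript of 51 exons in the forewing library and falls into pieces in the hindwing library, and the nscaf2674 and nscaf3040 loci have a short form at their 3′ end in the forewing library alone.

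The locus nscaf2890:1399971-1445711 on the plus strand had 47 exons in the hindwing and 49 in the forewing library, and 46 of its 49 introns were in both. The locus nscaf2734:1329752-1416561 on the minus strand had 49 exons in the hindwing library but 26 in the forewing library. It was also the longest, at 86810 bases over all its transcripts, with 85 introns. Its spliced transcripts fell into 4 groups with no base in common in the hindwing and 7 in the forewing library. Its fullest forms shared 11 introns, which is 44.0% of the fewer. Only 1 other locus, nscaf2210:2479980-2540862 on the minus strand, was under 50% by this measure, with 17 shared introns or 47.2%. In 72 of the 80 loci the fullest forms shared 90% or more of the fewer introns. The rule asked for many exons in each library, which favoured such sharing, so this count is given only as a description.

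The internal exons of the 80 loci had a median length of 151 bases (95% interval 148 to 154, quartiles 117 and 193, 2123 exons). In the 1071 loci of 10 to 19 exons that spanned less than 50000 bases the median was 153 (151 to 154), and it was also 153 in the 34 loci of 20 or more exons that spanned 50000 bases or more (149 to 157). The lengths ran from 18 to 3093 bases, and within a locus the median ran from 99.5 to 229. Long internal exons were few. Of the 2123 exons, 54 or 2.54% (Wilson interval 1.95 to 3.30%) had 500 bases or more, against 4.13% (3.79 to 4.49%) in the loci of 10 to 19 exons and 3.81% (2.80 to 5.16%) in the longer loci. No exon of this length was found in 51 of the 80 loci. The longest, 3093 bases, was in nscaf2575:3898873-3918060 on the plus strand, a locus of 20 exons in both libraries. It followed an intron of 81 bases and stood as the 15th exon, and the 18th exon of the same locus had 1142 bases. At the other end, 6 internal exons had 30 bases or fewer.

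The length of an internal exon was a multiple of 3 in 742 of 2123, or 35.0% (33.0 to 37.0%). The share was 35.7% (34.9 to 36.6%) in the loci of 10 to 19 exons and 41.2% (38.2 to 44.3%) in the longer loci of 20 or more. Between the 80 loci it ran from 13.0% to 62.5%. The nscaf2855 locus was near the low end with 18.2%, and the locus nscaf2887:349403-380346 near the high end with 57.9%.

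The introns had a median length of 648 bases (623 to 670, quartiles 358 and 1056, 2253 introns). The limit on span bounds this value, since a locus with a very long intron could not be a member, so the comparison with the longer loci (773 bases, 721 to 820) is fixed by the rule and given only as a description. The loci of 10 to 19 exons, under the same limit, had a median of 695 (685 to 706). Beside the main group of intron lengths there was a narrow peak below 100 bases. It held 153 introns or 6.79% (5.82 to 7.91%), in 52 of the 80 loci, against 6.79% and 6.86% in the loci of 10 to 19 exons and the longer loci. The longest intron had 18571 bases, and 15 loci had none of 2000 bases or more. The shortest locus, nscaf2965:80514-95753 on the plus strand, fitted 31 exons into 15240 bases with introns of 226 bases at the median.

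By median length the first introns of the 80 loci stood little apart from the rest, but they reached higher lengths. Their upper quartile was 1437.75 bases in the hindwing and 1415.25 in the forewing library. From the 6th intron to the last but 1 it was 1001 and 999.5. In the fullest forms the first intron had a median of 683 bases in the hindwing (522 to 971) and 685.5 in the forewing library (506 to 971), and those between the first and the last had 624 (603 to 653) and 623 (602 to 650). The last had 776 (583 to 949) and 844 (648 to 989). The first intron was the longest of its transcript in 11 of 80 loci in the hindwing and 10 in the forewing library, that is 13.8% (7.85 to 23.0%) and 12.5% (6.93 to 21.5%). In the loci of 10 to 19 exons these shares were 19.05% (16.8 to 21.5%) and 19.8% (17.5 to 22.3%). A transcript with more introns has more that can be the longest, and the shares were not scaled for that. In the loci of 20 or more exons above the span limit the first intron had a median of 22059 and 23285 bases and was the longest in 17 and 18 of 34. The limit on span bounds the first introns of the 80 loci too, so this is again given only as a description. From the 6th intron to the last but 1 the medians came closer, with 634.5 bases in the 80 loci and 689 in the longer loci in the forewing library.

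**Figure D2:**
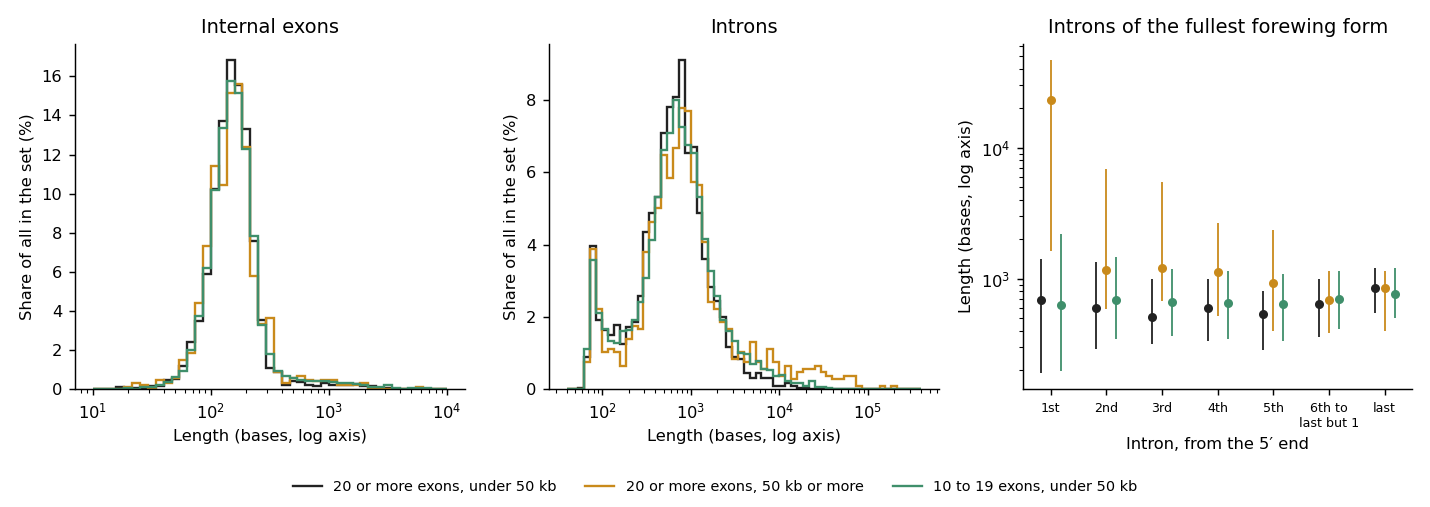
Lengths of internal exons (left) and introns (middle) in bases on a log axis as the share of all in each set, and introns of the fullest forewing form by their position from the 5′ end (right; points are medians, bars run between quartiles, log axis), for the 80 loci of 20 or more exons under 50 kb, the 34 of 50 kb or more and the 1071 of 10 to 19 exons under 50 kb. The exon curves lie on one another around 150 bases, all intron curves have a small peak below 100 bases, and only the loci of 50 kb or more have a long first intron at the median.

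Of the 2253 distinct introns, 2105 were found at the same bases in both libraries, or 93.4% (92.3 to 94.4%). The share was 93.5% (93.0 to 93.9%) in the loci of 10 to 19 exons, 93.4% (91.8 to 94.8%) in the longer loci and 88.4% (88.1 to 88.6%) in all other spliced loci. Members had to reach the exon minimum in each library, and loci that reached it in the hindwing or forewing library alone were left out. The rule thus favoured loci with shared introns. All other spliced loci needed only a spliced transcript in each library, so the comparison with them is given only as a description. In the 80 loci the hindwing library alone held 68 introns and the forewing library alone 80. In 30 loci every intron was in both libraries, in 36 loci 1 or 2 were not, and in 14 loci 3 or more were not. The differences were unevenly spread, with 31 of the 148 introns in 2 loci and 61 in 5. These 2 loci were nscaf2734 with 12 and nscaf2948:191207-244399 on the minus strand with 19 of its 56. In the 40 loci with the lower levels 91.0% of introns were in both libraries, and in the 40 with the higher levels 95.8%, so that the depth behind a locus moved with its share. Its part in the difference was not tested.

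Of the 148 introns found in 1 library alone, 58 reached past the ends of the transcripts of the other library, 55 joined 1 splice site known from the other library to a site that was not, and 20 joined 2 known sites in a way not seen there. A further 14 lay inside an exon of the other library, and 1 had neither end in common. The first or last intron of a form made up 46 of the 148. Where the chain of introns of the fullest form was the same in both libraries, in 40 loci, the outer ends still differed, by a median of 19 bases at the 5′ end and 43.5 at the 3′ end and by as much as 1939 and 4908.

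**Figure D3:**
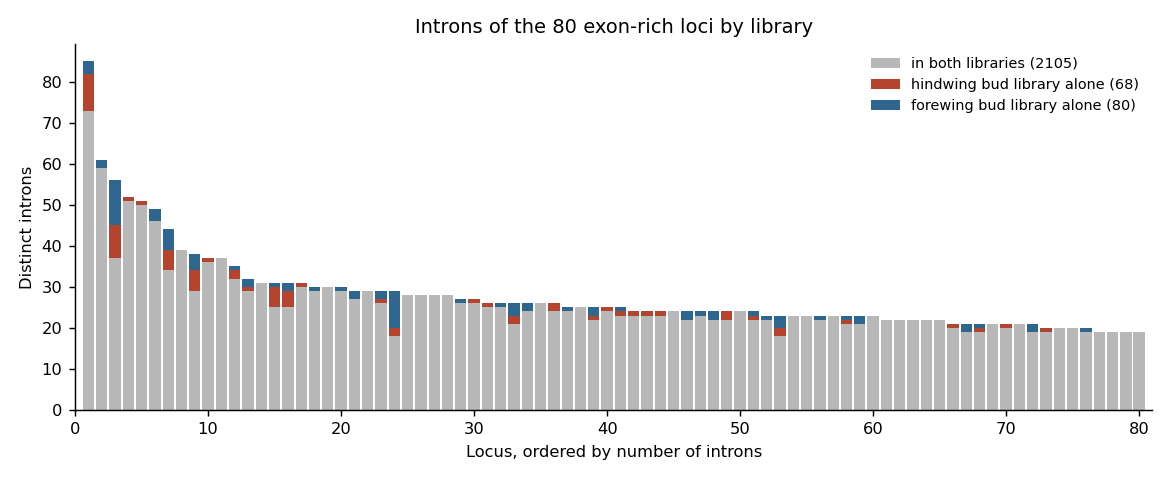
Distinct introns of each of the 80 exon-rich loci (bars, ordered by number), split into those in both libraries (grey), in the hindwing library alone (red) and in the forewing library alone (blue). Grey makes up 2105 of 2253 introns, and red and blue gather in a few loci, first of all the third bar, nscaf2948, with 8 hindwing and 11 forewing introns of 56.

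A form was counted as a distinct chain of introns. The 80 loci had a mean of 2.23 forms in the hindwing library (1 to 6) and 2.21 in the forewing library (1 to 10), against 1.82 and 1.76 in the loci of 10 to 19 exons, 2.32 and 2.21 in the longer loci and 1.496 and 1.440 in all other spliced loci. A single form was assembled in 27 loci in the hindwing and 29 in the forewing library. Over both libraries there were 294 forms, a mean of 3.68 per locus. The introns were largely shared but whole forms were not. At least 1 form was the same in both libraries in 51 loci, or 63.8% (52.8 to 73.4%), and the full set of forms in 14, or 17.5% (10.7 to 27.3%), against 38.5% (35.6 to 41.4%) in the loci of 10 to 19 exons. A form is the same only if every intron in it is. Loci with more introns can thus match less often at the same sharing per intron, and these shares were not scaled for that. The most abundant form was the same in 38 loci. Most forms were counted at nscaf2734, with 15 distinct chains and none in common. The loci nscaf2589:3886462-3951907 on the plus strand and nscaf2829:1404287-1438599 on the minus strand had 12 each, again with none in common, although 51 of 52 and 26 of 27 of their introns were in both libraries. At nscaf2829, for example, the hindwing forms of 24 and 25 exons ran the whole length of the locus, while the forewing library gave 8 shorter forms of 2 to 21 exons.

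Choices between splice sites and exons were found in 46 of the 80 loci, 108 in all. A skipped exon was seen 26 times in 19 loci, or 23.8% (15.8 to 34.1%) of them, against 9.71% (8.08 to 11.6%) of the loci of 10 to 19 exons. Per 100 introns the counts were closer, at 1.15 and 0.86. The longer loci of 20 or more exons had 20.6% (10.3 to 36.8%) by loci and 0.83 per 100 introns. The 26 events in the 80 loci were 24 distinct exons, since 2 of them were skipped between different neighbours. Of the 24, 16 or 66.7% (46.7 to 82.0%) had a length that was a multiple of 3. For all internal exons of the 80 loci the share was 35.0%. The skipped exons ran from 18 to 657 bases. Alternative 5′ splice sites were found 20 times, with a difference of a multiple of 3 in 13, and alternative 3′ splice sites 22 times, with a multiple of 3 in 15. In 4 of the latter the sites were 3 bases apart. For 5′ sites the share with a multiple of 3 was 65.0% (43.3 to 81.9%) in the 80 loci. It was 30.5% (23.2 to 38.9%) in the loci of 10 to 19 exons and 5 of 6 in the longer loci. For 3′ sites the shares were 68.2% (47.3 to 83.6%), 65.7% (58.2 to 72.5%) and 9 of 15. A retained intron was found 24 times in 17 loci, where overlapping introns with 1 end in common counted as separate events, in the other sets as well. Retained introns thus came to 1.07 per 100 introns, against 0.46 in the longer loci of 20 or more exons, 2.90 in the loci of 10 to 19 exons and 3.65 in all other spliced loci. By loci the order was another, with 21.3% (13.7 to 31.4%) of the 80 and 14.7% (6.45 to 30.1%) of the longer loci. The loci of 10 to 19 exons had 24.0% (21.5 to 26.6%) and all other spliced loci 14.2% (13.5 to 14.8%).

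In 8 of the skipped exons both choices were assembled in both libraries, so that their shares can be set side by side. The locus nscaf3040:3253876-3293624 on the minus strand carried a 270-base exon. Of the summed FPKM (fragments per kb and 1000000 fragments) of the forms across it, forms with the exon held 45.8% in the hindwing and 50.1% in the forewing library. At nscaf2887:349403-380346 on the plus strand, a 30-base exon was held by 88.7% in the hindwing and 75.3% in the forewing library. An 81-base exon of nscaf2847:6365407-6391625 was held by 26.0% and 26.7%, and a 63-base exon of nscaf2589 by 42.8% and 48.3%. At nscaf2890 a 42-base exon was seen in the forewing library alone, where 52.3% held it, and the single hindwing form lacked it. These shares follow from how the assembler divided fragments among forms, and their error between buds is not known. Only 3 loci had the same 2 or more forms in both libraries, and in each the same form was the more abundant.

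In 2 of the 80 loci a run of 3 exon lengths recurred within a transcript, which was also seen in 2 of the 34 longer loci and 2 of the 1071 loci of 10 to 19 exons. At nscaf2953:2525374-2561552 on the minus strand, the exon lengths 73, 200, 141 and 138 bases followed each other 3 times in a row, from the 13th to the 24th of 30 exons, in both libraries. Each unit made 552 bases of spliced RNA. Forms that left out 4 exons and exactly 552 bases were assembled in both libraries, at several places within the series, so that the number of units differed between forms. At nscaf2948 the forewing form of 31 exons held the lengths 141, 114, 270, 173 and 169 bases followed by 246 bases, then again with 249 bases at the end. The hindwing form of 22 exons began with a first exon of 272 bases, followed by 173, 169 and 246 bases, and then had the whole order once, with 207 bases in place of 270. Runs of 6 exons and 1113 bases were left out there in some forms. Both loci were low, at 17.4 and 12.1 FPM for nscaf2953 and 8.86 and 11.8 FPM for nscaf2948. No sequence of this build was at hand to compare the copies, and the part of reads that match more than 1 copy in these forms was not tested.

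**Figure D4:**
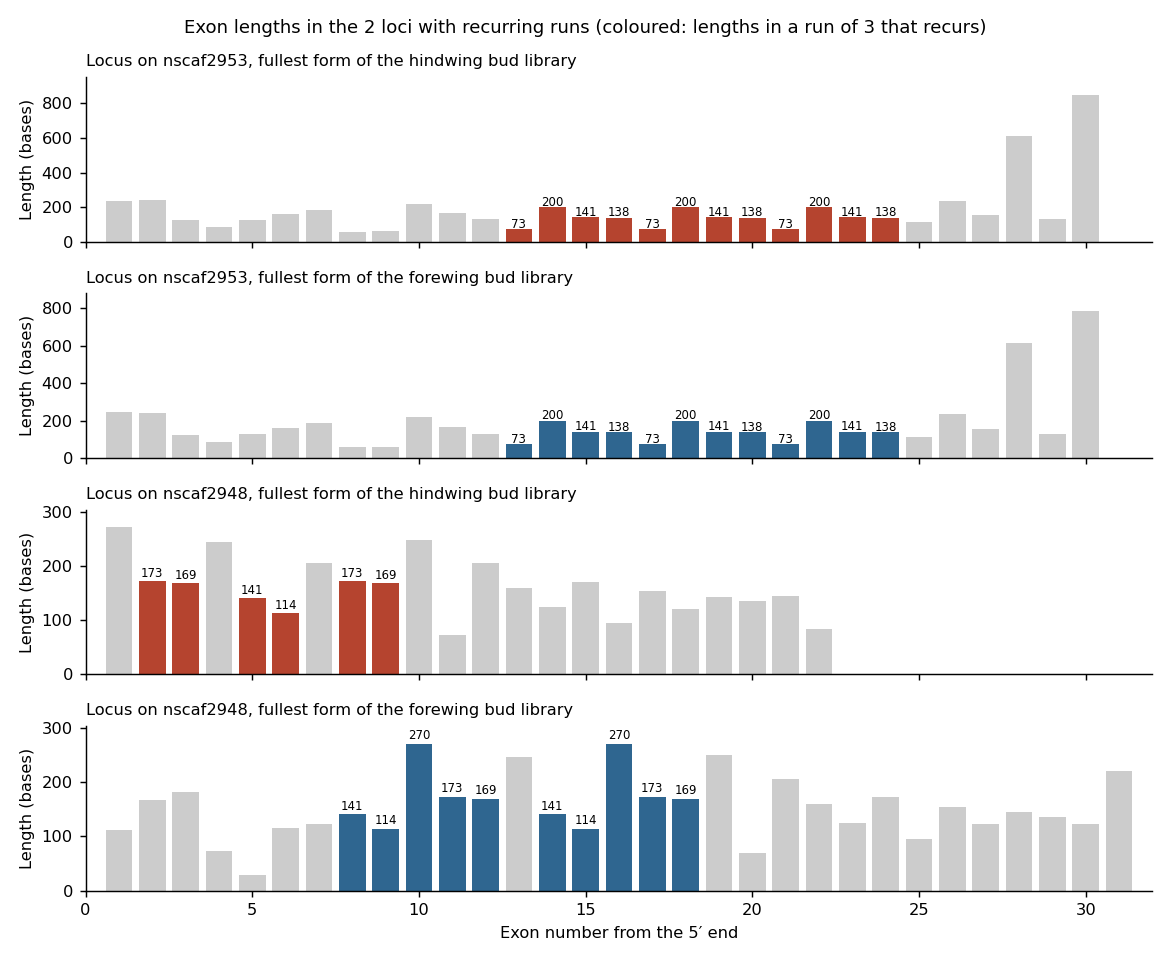
Exon lengths in bases (y axis) by exon number from the 5′ end (x axis) in the fullest form of nscaf2953 and nscaf2948 in the hindwing (red) and forewing (blue) bud libraries, with coloured bars for lengths that belong to a run of 3 found more than once in a fullest form of that locus. The unit of 73, 200, 141 and 138 bases is repeated 3 times in both libraries at nscaf2953, and the forewing form of nscaf2948 holds its unit 2 times.

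The level of a locus was taken as FPM, here the middle of the deposited interval of each transcript times its length in kb, summed over the transcripts of the locus. The level had a median of 100.1 FPM in the hindwing library (interval of the median 73.5 to 138.1) and 97.7 FPM in the forewing library (66.3 to 125.6), with a range of 6.02 to 2552 and 5.06 to 2452. All other spliced loci, which did not have to meet the rule, had medians of 25.2 and 25.3 FPM. Since FPM grows with the length of a transcript, levels per length were compared too. The FPKM at the middle of the interval, summed over transcripts, had a median of 19.5 in the hindwing (15.4 to 29.0) and 19.2 in the forewing library (13.0 to 27.4), against 17.2 and 16.5 in the loci of 10 to 19 exons and 12.7 and 12.4 in all other spliced loci. The 80 loci held 1.498% of all FPM of the hindwing and 1.485% of that of the forewing library. By an estimate from the deposited bounds the libraries held 43528000 hindwing and 37192500 forewing fragments, and a member rested on 262 to 111073 and 188 to 91206 fragments.

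The highest level was that of nscaf3040, a locus of 39 exons, with 2552 FPM (2514 to 2590) in the hindwing and 2452 (2408 to 2497) in the forewing library. Its hindwing level was carried by forms of 38 and 39 exons with 1362 and 1189 FPM. Its forewing level was divided among those forms, at 881 and 916 FPM, and a form of 10 exons at the 3′ end with 655 FPM. The locus nscaf2965, of 31 exons in both libraries, had 911.3 and 929.4 FPM, and nscaf2887:349403-380346, of 21 exons, had 877.2 and 944.0 FPM. At nscaf2887 the forewing value included an unspliced transcript of 13526 bases with 129.6 FPM, and the hindwing library held no transcript of that length there. Of all FPM in the 80 loci, 86.3% in the hindwing and 80.4% in the forewing library lay in forms of 20 or more exons, and 3.95% and 3.05% in unspliced transcripts.

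The levels of the 2 wing buds lay close together. In bulk RNA of whole buds, fewer cells of a type and less RNA per cell cannot be told apart. The ratio, log2 of (hindwing FPM + 1) over (forewing FPM + 1), had a median of 0.06 (0.01 to 0.08), which is 1.04-fold higher in the hindwing library, and a range of -0.98 to 1.37. All spliced loci of at least 1 FPM had a median of 0.01 on the same scale. The 2 levels were within 1.1-fold in 46 of the 80 loci, within 1.2-fold in 65 and within 1.5-fold in 73. The median size of the log2 ratio was 0.11, against 0.15 in the loci of 10 to 19 exons, which had lower levels. In the 40 loci with the lower levels it was 0.16 and in the 40 with the higher levels 0.08. A level 2-fold or more higher in the hindwing library was found in 2 of 80 loci, against 1.75% of all spliced loci measured, and 2-fold higher in the forewing library in 0 of 80, against 1.83%. The intervals of the 2 libraries were apart, with the hindwing higher, in 20 loci, where 15.7% of all spliced loci were, and with the forewing higher in 11, where 16.2% were. The shares at 2-fold were near the background. By summed deposited FPKM, 5 loci were 2-fold higher in the hindwing and 3 in the forewing library, where 6.94% and 5.45% of all spliced loci were.

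**Figure D5:**
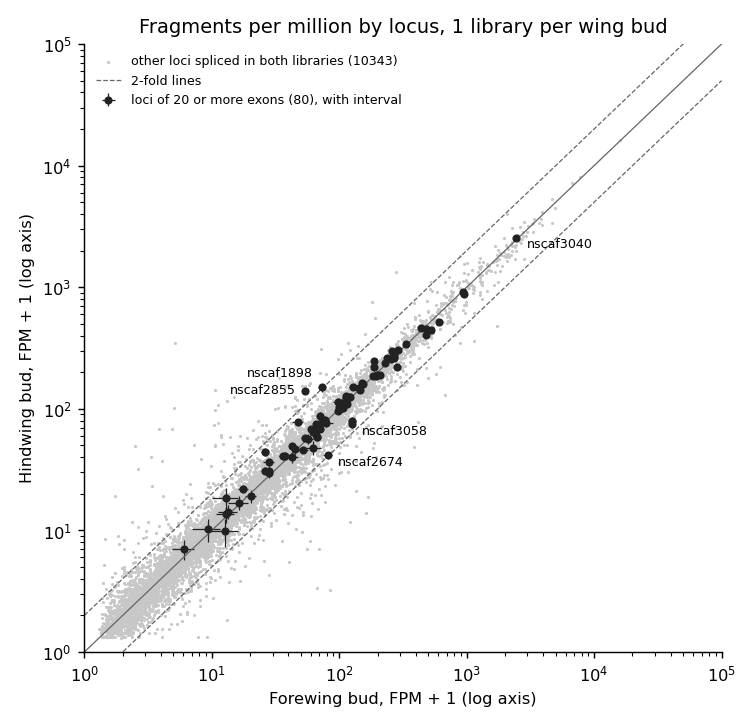
Level of each locus in the hindwing (y axis) and forewing (x axis) bud libraries as FPM + 1 on log axes, for the 80 exon-rich loci (black, bars are the summed deposited intervals) over the other loci spliced in both libraries (grey), with 2-fold lines dashed. The black points follow the diagonal from 5.06 to 2552 FPM, with nscaf2855 and nscaf1898 above the upper 2-fold line.

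The largest ratio was at nscaf2855, with 138.1 FPM (133.5 to 142.7) in the hindwing and 52.9 (49.9 to 55.9) in the forewing library, a log2 ratio of 1.37. The intervals were far apart, and as the structure was the same in both libraries, with 1 form of 24 exons, no division among forms entered this value. By summed FPKM midpoint the log2 ratio was 1.28. The second was nscaf1898:7871508-7905855 on the plus strand, a locus of 23 exons, with 149.0 FPM (137.9 to 160.1) in the hindwing and 72.5 (67.0 to 78.1) in the forewing library, a log2 ratio of 1.03. Here a form of 13 exons was assembled in the hindwing library alone and held 40.4 FPM. Among forms of 20 or more exons the levels were 108.6 and 72.5 FPM, a log2 ratio of 0.58. The hindwing forms ended at base 7905855 and the forewing forms at base 7903953. The forms of 23 exons had 5993 and 4069 bases, and FPM grows with length. Per length, the forms of 20 or more exons had 6.56, 8.77 and 4.11 FPKM in the hindwing library. In the forewing library they had 11.6 and 7.95 FPKM. By summed FPKM midpoint over all transcripts the log2 ratio was 0.56. The part of the differing 3′ ends in the ratio was not tested.

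The largest ratio in the other direction, -0.98, was at nscaf2674:4321176-4360400 on the plus strand. The hindwing library had 40.4 FPM (37.7 to 43.1) there and the forewing library 80.5 (73.8 to 87.1). The hindwing library gave 1 form of 40 exons. The forewing library gave 2 forms of 37 exons, which together held 40.4 FPM, and a form of 7 exons at the 3′ end with 40.1 FPM. Thus the forms of 20 or more exons were at the same FPM in both libraries, with a log2 ratio of 0.00, and the 7-exon form made up the difference in FPM. By summed FPKM midpoint over all transcripts the levels were 3.68 and 11.0 and the log2 ratio was -1.36, beyond 2-fold. At nscaf3058:3255792-3284472 on the plus strand the levels were 73.5 FPM (68.0 to 78.9) in the hindwing and 125.6 (118.3 to 132.8) in the forewing library, a log2 ratio of -0.77. All forewing forms and 1 of 2 hindwing forms there had 20 or more exons, and by those forms alone the levels were 55.2 and 125.6 FPM, a log2 ratio of -1.17. By summed FPKM midpoint over all transcripts of that locus the log2 ratio was -0.92.

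At nscaf2589 the ratio depended on which forms were counted. Its levels were 283.3 and 269.2 FPM in all. In the hindwing library all of this was in forms of 20 to 28 exons, while in the forewing library a form of 2 exons at the 3′ end held 191.2 FPM and the forms of 20 or more exons 60.2, so that by those forms alone the log2 ratio was 2.22. A case of the opposite kind, chosen after its values were seen, was nscaf3003:4432642-4465070 on the minus strand. It had 217.8 and 186.3 FPM, but summed FPKM midpoints of 165.4 and 27.4, and 80.5% of the hindwing sum came from a form of 2 exons.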

How the data were processed

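The study's methods give quality trimming, mapping of read pairs by TopHat and assembly by Cufflinks, whose version is 2.1.1 in the submitters' processing notes. Cuffdiff is named there as well. The deposited FPKM of each transcript and the bounds of its interval are those of Cufflinks for that library alone, and the authors did not scale them between libraries. The Cuffdiff comparison was not analysed here. The deposited score column entered no result. PCR copies, after 11 cycles, were not marked.

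Both assemblies, 32946 hindwing and 27876 forewing transcripts, were joined into loci, and a transcript without strand joined either strand. The middle of the deposited bounds was used in place of the FPKM, and the summed bounds gave a locus its interval. Ratios were taken without scaling, with a pseudocount of 1 FPM, over loci of at least 1 FPM in a library. Fragments were estimated as the depth at which 96.5% of 13353 hindwing and 96.2% of 9110 forewing bounds below 30 fragments came out whole within 0.05. Intervals are Wilson intervals for shares and order-statistic intervals for medians, at 95%. They treat introns or loci as independent, which those of 1 gene are not. The work was done in Python 3.11.15 with scipy 1.17.1, numpy 2.4.6 and pandas 2.3.3. Known changes planted in a copy of the forewing transcripts were used as simulated data to test the code. No name in the RefSeq gene table at hand matched the deposited identifiers, and no sequence was read.

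The loci and the measures were chosen with earlier results of these data known. The loci named were those with the most exons, fragments, forms and introns in 1 library, the longest internal exon, the extremes of span and the 2 largest ratios in each direction at 5 FPM or more with intervals apart. The loci on nscaf2210, nscaf2953, nscaf3003, nscaf2847 and any other named were chosen after their values were seen.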

Additional observations from a re-analysis of the deposited data

How the results depend on the processing

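No paired analysis was possible because each wing bud had 1 library, and for the same reason no replicate could be left out. Of 112 values under other settings, 82 stayed within 1.5 times a count or within the interval of the main value. Changes to the rule moved some of the values. With 15 exons as the minimum there were 243 loci, the internal exon median was 154.5 bases and 1 locus was 2-fold higher in the forewing library. With 30 exons there were 13 loci, with medians of 160 bases for exons, 542.5 for introns and 162.5 and 149.6 FPM in the hindwing and forewing libraries, and 0 loci 2-fold higher in the hindwing. Without a limit on span the intron median was 675.5 bases and 1 locus was 2-fold higher in the forewing library. With unstranded transcripts left out, 2 loci were 2-fold higher in the forewing library, and 2 with single-exon transcripts left out. With transcripts of at least 1 FPKM alone, 91.9% of introns were in both libraries. Counting forms of 20 or more exons alone gave 1.56 and 1.53 forms per locus. Summed deposited FPKM gave medians of 19.5 and 19.2, a median log2 ratio of 0.10, and 5 loci 2-fold higher in the hindwing and 3 in the forewing library, and the interval midpoint gave 19.5, 19.2, 5 and 3. The medians by these 2 measures are in FPKM but were judged against intervals in FPM, so that their move was fixed by the unit. With a pseudocount of 5, 1 locus was 2-fold higher in the hindwing library. Among alternatives added after the data were seen, transcripts of 20 or more exons alone gave a hindwing median of 70.3 FPM and 4 loci 2-fold higher in the forewing library, and loci on 1 strand with 1 group of transcripts in both libraries gave 94.8% of introns in both and 1.92 hindwing forms per locus. For the differences between settings the cause was not tested. The locus with the fewest fragments rested on 262 in the hindwing and 188 in the forewing library.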

Other observations

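Exons of 1 length recurred at nscaf2865:2628979-2648299 on the plus strand, a locus of 21 exons in the hindwing and 22 in the forewing library. A 168-base exon there was held by forms with 28.0% of the summed FPKM across it in the hindwing library and by all forewing forms, and another 168-base exon by forms with 72.0% and 82.6%. The levels of the locus were 77.9 and 125.7 FPM.

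Members of the set also stood next to each other. The loci nscaf2853:4863257-4883469 and nscaf2853:4883534-4898967, both on the minus strand, were 64 bases apart. The first had 13.3 FPM in the hindwing and 12.5 in the forewing library, and the second 6.02 and 5.06 FPM, the lowest level of all 80 loci in both libraries. Both loci were chosen after their values were seen.

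The shortest skipped exon had 18 bases, at nscaf2964:1470969-1494400 on the plus strand, and the hindwing forms with it held 79.5% of the summed FPKM across it while no forewing form held it. The same locus had the longest, of 657 bases, held by 75.8% in the hindwing and 63.6% in the forewing library.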
